A study of Mus musculus with 12 samples.

Results

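Maternal separation was compared with no intervention at MeDIP-Seq peaks that lie outside promoters, in the bodies of genes and between genes. MeDIP-Seq enriches DNA fragments with an antibody against 5-methylcytosine before sequencing, and a peak is a stretch where the authors' caller found more enriched reads than in the input of the group. Of 143606 peaks in the 4 libraries compared, 139649 were classed as gene body or intergenic, and they merged into 67793 regions where peaks overlapped by at least 1 bp. The whole series holds 291684 peaks in 8 libraries, which merged into 91177 regions. A region was called gained where both Stress libraries and neither Control library had a peak outside promoters, and lost in the reverse case.

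All mice were male C57BL/6J, and hippocampal DNA was taken at postnatal day 70. Stress mice spent 3 h of each day away from the dam between postnatal days 2 and 14 and had no prenatal ethanol, and Control mice had neither treatment. Ethanol mice, exposed before birth through a dam that drank a 10% ethanol solution by choice, and Ethanol + stress mice, which had both treatments, served here only as libraries that took no part in the calls. By the study's methods, the solution stayed available to the dam after birth, during part of the days of separation. There were 2 enriched libraries and 1 input library for a group. According to the study's methods, every library came from a different mouse. Since the background of a library was the input from its group, an effect of the group and one of its input cannot be told apart. Whole hippocampus holds neurons and glia together, so a change in the makeup of cells and a change within cells cannot be told apart either.

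In the adult mammalian genome most cytosines of CpG pairs away from CpG islands are methylated, and the bodies of transcribed genes carry methylation as well. CpG pairs are rare in most of the genome and are denser in exons and in young transposable elements. In neurons, cytosines outside CpG pairs, mainly those followed by A, also carry methylation. An antibody pull-down recovers a fragment more readily the more methylated cytosines it holds, so it reads density of methylation rather than the share of methylated copies at a site.

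Regions gained in Stress were numerous, and regions lost in Stress were few and CpG-poor. There were 7958 gained regions (11.7% of all regions) and 763 lost regions (1.13%), and gained regions made up 91.25% of the called ones. The median CpG density in the 300 bp around the summit was 2.33 per 100 bp in gained regions and 0.33 per 100 bp in lost ones, beside 1.67 over every region. Regions found in all 4 libraries had the same median as gained ones, 2.33 per 100 bp. When each library kept only its 23311 strongest peaks by q-value, the counts came to 2059 gained (4.85%) and 1976 lost (4.66%), and the median densities to 3.00 and 0.667 per 100 bp, beside 3.00 in regions found in all 4 libraries. The excess of gained over lost regions therefore depended on the number of peaks per library, while the difference in CpG density was present with and without equal numbers. Equal numbers did not give sets of equal strength. The kept peaks began at a −log10 q-value of 20.01 and 28.2 in the Stress and 14.3 and 5.08 in the Control libraries, and their median fold was 9.25 and 11.6 against 8.15 and 8.19, without overlap. The part of that difference in the CpG densities was not tested.

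The sequence at the summits of the strongest called regions shows this contrast, and 6 regions of each direction are printed to that end. They are those ranked highest by the lower of their 2 within-library percentiles of fold, 1 region per gene, leaving out predicted genes, genes of small RNAs, and receptors of smell and pheromones. No gained region was left out by gene type among the strongest, but 6 lost ones were, 3 of which ranked above every lost region printed. Obox6 was passed over because Control libraries had a promoter peak at the same place. Each line gives 120 bases of the plus strand centred on the summit, from the RefSeq copy of the mm10 assembly (GRCm38.p6), under the name of the gene with the nearest start site, with CpG pairs in capitals. The first lines are gained regions.
Foxk1, chr5:141975201-141975320: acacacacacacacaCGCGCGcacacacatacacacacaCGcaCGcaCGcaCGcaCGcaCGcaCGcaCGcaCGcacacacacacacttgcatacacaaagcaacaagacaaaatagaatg
Duxbl1, chr14:25975468-25975587: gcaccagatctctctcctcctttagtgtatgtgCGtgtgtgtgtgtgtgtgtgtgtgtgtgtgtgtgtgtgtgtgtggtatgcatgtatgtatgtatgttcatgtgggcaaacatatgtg
Cetn2, chrX:72877790-72877909: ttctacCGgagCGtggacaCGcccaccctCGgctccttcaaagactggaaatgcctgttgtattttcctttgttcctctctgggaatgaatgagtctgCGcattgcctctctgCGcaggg
Cox7b2, chr5:71557131-71557250: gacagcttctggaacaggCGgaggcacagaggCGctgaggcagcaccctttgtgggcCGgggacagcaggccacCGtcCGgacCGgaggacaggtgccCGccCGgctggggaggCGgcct
Nxph4, chr10:127573122-127573241: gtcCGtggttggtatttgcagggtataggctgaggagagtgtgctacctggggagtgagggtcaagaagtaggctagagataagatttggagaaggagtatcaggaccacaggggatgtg
Tmbim6, chr15:99422709-99422828: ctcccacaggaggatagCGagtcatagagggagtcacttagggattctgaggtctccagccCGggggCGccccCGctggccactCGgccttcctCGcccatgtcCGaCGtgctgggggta

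These 120 bases held between 1 and 12 CpG pairs in the gained regions, with 12 at Foxk1, 9 at Cox7b2, 8 at Tmbim6 and 6 at Cetn2, but 1 each at Duxbl1 and Nxph4. The Foxk1 window is a run of CA pairs broken by CG pairs. The Duxbl1 window holds a long run of TG pairs, a repeat that lost windows below also hold. The next lines are lost regions.
Nfe2l3, chr6:51255403-51255522: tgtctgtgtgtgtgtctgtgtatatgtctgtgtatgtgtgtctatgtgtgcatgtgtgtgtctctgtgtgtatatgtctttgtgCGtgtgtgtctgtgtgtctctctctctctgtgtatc
Derl1, chr15:57897189-57897308: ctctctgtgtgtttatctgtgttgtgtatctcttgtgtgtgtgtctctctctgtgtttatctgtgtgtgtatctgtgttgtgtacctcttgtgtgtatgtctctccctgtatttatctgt
Pik3ip1, chr11:3323460-3323579: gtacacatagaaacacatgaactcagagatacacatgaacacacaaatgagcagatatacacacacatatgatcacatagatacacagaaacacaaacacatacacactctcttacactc
Rasl11a, chr5:146865938-146866057: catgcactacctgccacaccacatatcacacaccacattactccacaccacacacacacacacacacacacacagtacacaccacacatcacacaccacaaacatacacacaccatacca
Itpr2, chr6:146439845-146439964: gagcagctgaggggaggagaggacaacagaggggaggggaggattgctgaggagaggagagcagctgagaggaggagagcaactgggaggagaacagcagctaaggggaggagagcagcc
Scara3, chr14:65949897-65950016: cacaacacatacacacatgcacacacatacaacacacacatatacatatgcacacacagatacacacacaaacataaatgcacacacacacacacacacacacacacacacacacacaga

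The lost windows held 1 CpG pair at Nfe2l3 and 0 at the other 5. Those at Nfe2l3 and Derl1 are rich in TG pairs and those at Pik3ip1, Rasl11a and Scara3 in CA pairs, which are the same repeat read from the other strand, and the Itpr2 window is a purine-rich repeat.

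Libraries differed in how many peaks they held outside promoters. Stress 1 had 39122 and Stress 2 had 50299, against 26917 in Control 1 and 23311 in Control 2. The means were 44710.5 ± 7903 (SD, n = 2) and 25114 ± 2550, and the groups did not overlap. A two-sided exact permutation test over the 4 libraries gave p = 0.33, the smallest value that 2 against 2 libraries allow, and 0.542 after adjustment over 13 measures per library. No p in such a design can pass the usual threshold, and these p-values measure only the spread between libraries. Read depth was not analysed here, so its part in the number of peaks was not tested.

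All 4 libraries had a peak in 13026 regions (19.2%), while 31828 regions (46.9%) had a peak in 1 library, 17266 of them in Stress 2. The pair Stress 1 and Stress 2 was the most frequent of the 6 possible pairs with all peaks. Pairs of 1 Stress and 1 Control library were found in 765 to 2206 regions, so that the pair of Control libraries, with 763, was the rarest. With equal numbers of peaks the pairs within a group were the more frequent ones, with 2059 and 1976 regions against 972 to 1146 for the 4 mixed pairs.

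**Figure D1:**
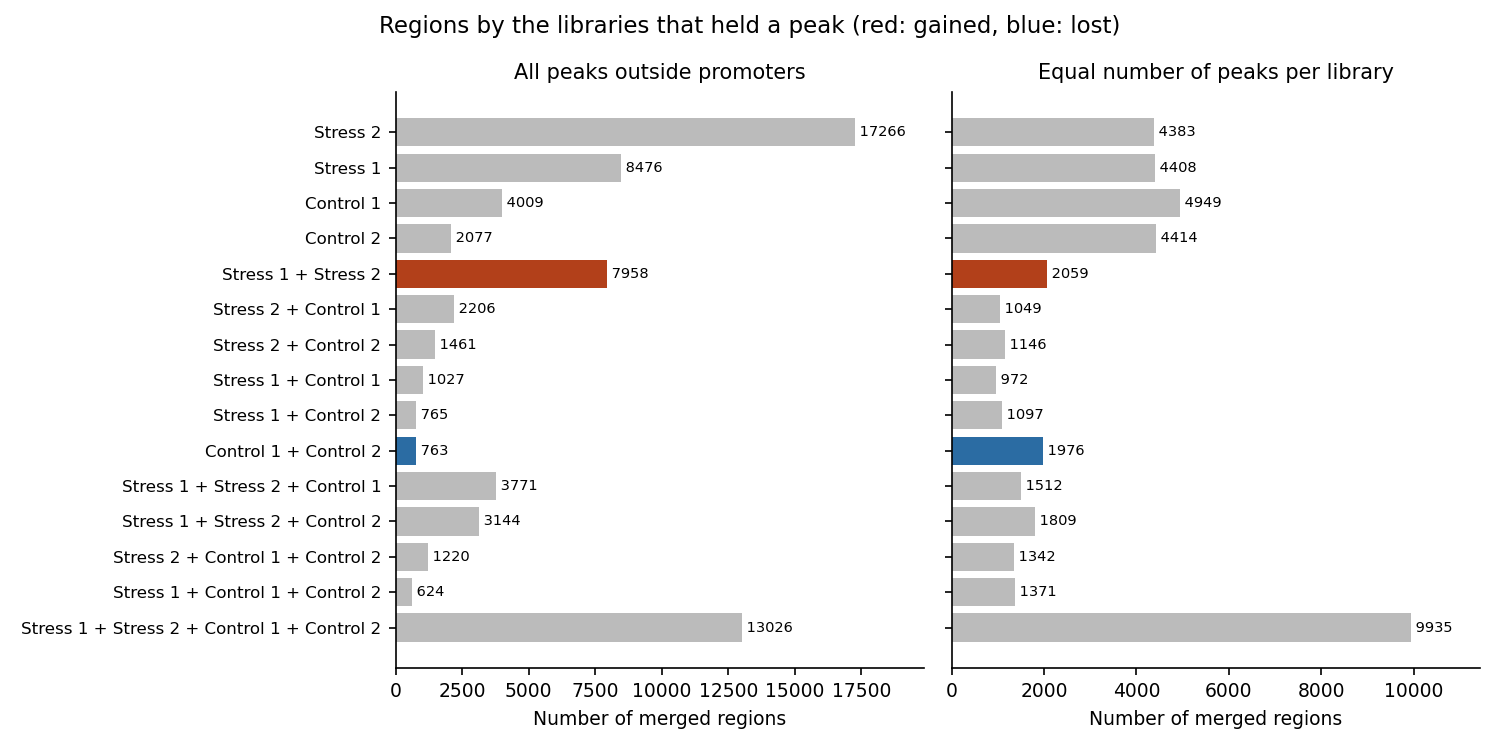
Number of merged regions (horizontal axes, of different range) for each combination of the 4 libraries that held a peak, with all peaks outside promoters on the left and the 23311 strongest peaks of each library on the right. The red bar is the gained and the blue bar the lost count: 7958 and 763 on the left, 2059 and 1976 on the right.

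Equal numbers changed which regions were called. Of the gained regions, 1898 (23.9%) were still gained, and of the lost regions 627 (82.2%) were still lost. A gained call can fail only where a Stress peak is trimmed, and a lost call only where a Control peak is trimmed. Trimming to 23311 peaks took none from Control 2, which set that number. Control 1 had 26917 before trimming, Stress 1 39122 and Stress 2 50299. The higher share still lost is therefore favoured by construction and does not rank the directions. Of the 1976 regions lost with equal numbers 1349 were new, as were 161 of the 2059 gained. By construction a region becomes newly lost where trimming removes every Stress peak, so at least 1 Stress library had a weaker peak in such a region.

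Called regions had lower folds than regions found in all 4 libraries. The fold enrichment deposited by the authors is the ratio of the enriched library to its local background, and the highest fold of a region had a median of 8.64 in gained and 7.89 in lost regions, against 14.2 in regions found in all 4 libraries and 8.15 over every region. Gained regions thus lay slightly above the median of all regions and lost ones slightly below it. With equal numbers the medians were 10.8 in gained and 8.30 in lost regions, against 9.82 over every region. The highest fold is taken over more libraries in regions found in all 4, which raises it there by construction. Called regions have a peak in 2 libraries. With all peaks, every region mixes those with a peak in 1 (46.9%), 2 (20.9%), 3 (12.9%) and 4 libraries (19.2%). The median over every region is therefore not a like background for the called ones. With all peaks, the lowest fold of a region lay closer together. Its median was 6.94 in gained and 6.71 in lost regions, against 7.89 in regions found in all 4 libraries. A fold of at least 10 in both libraries of the group was reached by 365 gained regions (4.59%) and by 13 lost regions (1.70%). In comparison, 3281 regions found in all libraries (25.2%) reached it in all 4. The summits of the 2 libraries lay within 200 bp of each other in 6863 gained (86.2%) and 672 lost regions (88.1%). Peaks were deposited only above the authors' limit, with a lowest −log10 q-value between 5.03 and 5.27 in the 4 libraries, and no value is available here for a place where no peak was called.

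CpG density differed between gained and lost regions. Fewer than 1 CpG per 100 bp, here called CpG-poor, was found in 1362 gained regions (17.1%), 509 lost regions (66.7%), 21084 of all regions (31.1%) and 4180 of those found in all 4 libraries (32.1%). At 3 or more per 100 bp lay 41.8% of gained, 6.82% of lost and 30.8% of all regions, and 45.01% of those found in all 4 libraries, so that a high density was not particular to gained regions. Of the 6170 regions with no CpG pair, 324 (5.25%) were gained and 195 (3.16%) lost. Of the 12292 regions with 3 to under 5 per 100 bp, 2086 (17%) were gained and 36 (0.293%) lost. With equal numbers of peaks the order was the same, from 1.17% gained and 10.2% lost at a density of 0 to 8.45% gained and 1.57% lost at 3 to under 5 per 100 bp. In the densest class, at 5 and over, both shares were lower than in the class before it.

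**Figure D2:**
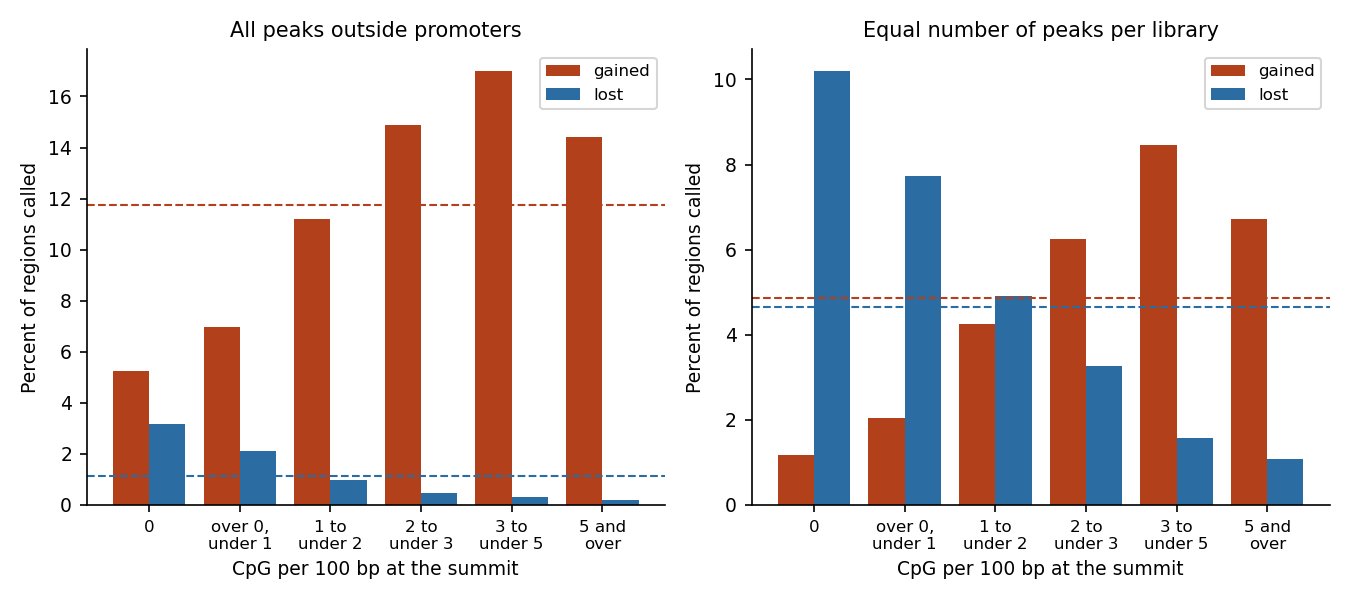
Percent of regions called gained (red) and lost (blue) on the vertical axes, by CpG pairs per 100 bp in the 300 bp around the summit, with all peaks on the left and equal numbers on the right. Dashed lines mark the percent over all regions (11.7 and 1.13 on the left, 4.85 and 4.66 on the right), which the gained bars exceed only from a density of 2 upward.

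The same contrast held for the ratio of observed to expected CpG pairs, with medians of 0.429 in gained, 0.162 in lost and 0.350 in every region. GC content differed less, at 49.3% in gained, 46.0% in lost and 48.0% in every region. More than 50% of the window was repeat-masked in 39.96% of gained and 71.2% of lost regions, against 49.1% of every region and 68.7% of those found in all 4 libraries. Runs of at least 5 CA pairs, or TG on the other strand, were found in 1590 gained regions (19.98%), 259 lost regions (33.9%), 36.7% of regions in all libraries and 27.8% of all regions. With all peaks, long CA runs were thus not particular to lost regions, which had about the share of the regions common to all libraries. With equal numbers of peaks the share of lost regions was the higher one, at 44.1% against 34.2% of regions in all libraries. It was then 17.9% in gained and 31.6% in all regions. A match to such a run is a description of the sequence and no measurement of methylation at it.

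Pairs of libraries from different groups lay between the directions. With all peaks, CpG-poor regions made up 45.2% of those with a peak only in Stress 1 and Control 1, 54.1% for Stress 1 and Control 2, 32.8% for Stress 2 and Control 1 and 36.1% for Stress 2 and Control 2. Regions found in 1 library were CpG-poor in 32.7% for Stress 1, 23.4% for Stress 2, 54.0% for Control 1 and 61.0% for Control 2. The share thus went with the libraries that held the peak and was not confined to the called regions.

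Per library, 29.0% of the peaks of Stress 1 and 25.9% of those of Stress 2 were CpG-poor, against 37.4% in Control 1 and 37.8% in Control 2. The groups did not overlap, and the mean difference was -10.1 percentage points (exact permutation p = 0.33, the smallest possible, adjusted 0.542). With equal numbers of peaks it was -12.3 points, again without overlap. Over all 8 libraries, the CpG-poor share moved with the number of peaks. The 4 libraries with the fewest peaks, Ethanol 2 with 22239, Control 2, Control 1 and Ethanol + stress 2 with 35203, had shares of 38.3%, 37.8%, 37.4% and 36.3%. The others had 25.9% to 31.96%. When all 8 libraries were reduced to 22239 peaks, the shares ran from 23.0% in Stress 2 and 26.7% in Stress 1 to 36.9% in Control 1, 37.9% in Control 2 and 38.3% in Ethanol 2, so that equal numbers left the same 4 libraries on each side. The part of library yield in the contrast between Stress and Control was not tested.

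**Figure D3:**
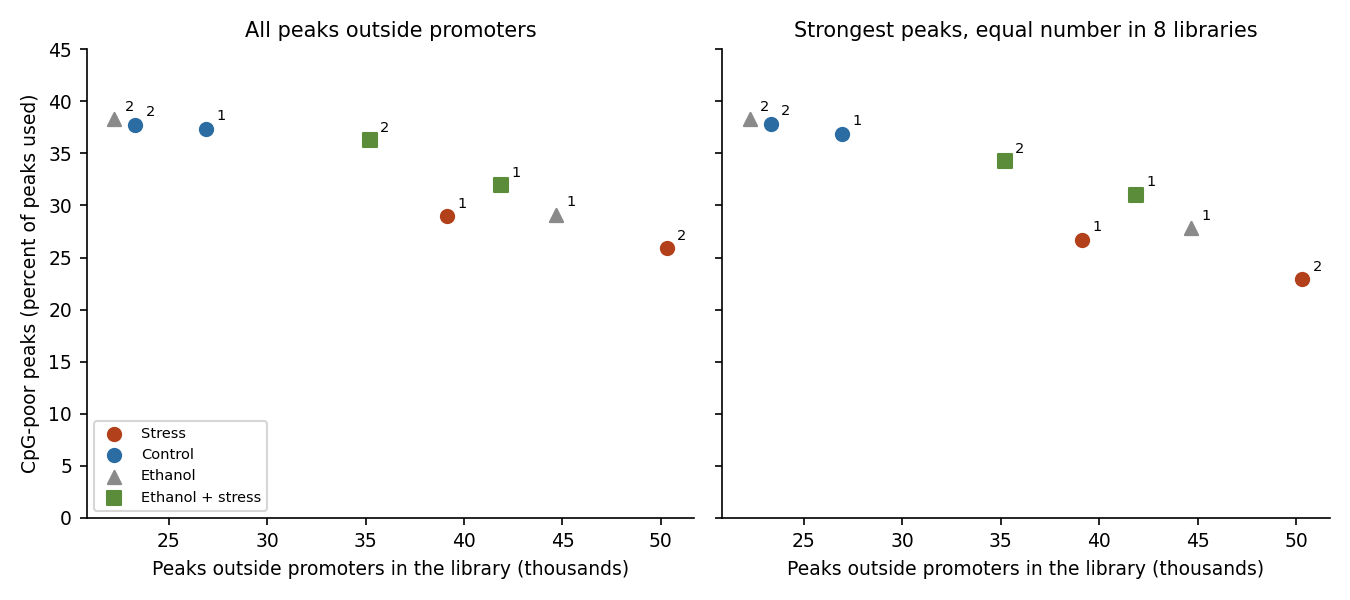
Share of peaks that were CpG-poor (vertical axis, percent) against the number of peaks outside promoters in the library (horizontal axis), 1 point per library with its replicate number. The left panel uses all peaks and the right panel the strongest 22239 of each library, and in both the Stress points lie lowest and the Control points near the top, beside Ethanol 2.

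Coding exons held more gained and fewer lost regions than their share of all regions. By the GENCODE M21 annotation at the summit, 529 gained regions (6.65%) and 5 lost regions (0.655%) lay in a coding exon, against 2981 of every region (4.40%). Of the regions found in all 4 libraries, 644 (4.94%) did. Put the other way, 17.7% of coding exon regions were gained and 0.168% lost. Introns held 3291 gained and 349 lost regions, 11.3% and 1.20% of those in introns. Between genes there were 3804 gained (11.4%) and 395 lost regions (1.18%). With equal numbers of peaks, 171 coding exon regions (8.79%) were gained and 25 (1.28%) lost. Per library, coding exons took 4.88% and 5.11% of Stress peaks and 3.74% and 4.36% of Control peaks, a difference of 0.942 points without overlap (exact permutation p = 0.33). A share as high was not particular to Stress. It was 5.09% in Ethanol 1, 3.22% in Ethanol 2, 4.93% in Ethanol + stress 1 and 3.88% in Ethanol + stress 2. With all 8 libraries reduced to 22239 peaks, Ethanol 1 had 6.03% and Stress 1 5.48%. The part of library yield in this difference was not tested.

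By the class in the deposited files, which compares the summit with the gene of the nearest start site only, 2333 of the gained regions (29.3%) and 187 of the lost (24.5%) lay in a gene body. Gained regions were 12.5% of gene body and 11.5% of intergenic regions, and lost regions 1.00% and 1.17%. Gene body peaks were 27.1% and 28.1% of the peaks of the Stress libraries and 25.7% and 25.8% of those of the Control libraries. With equal numbers the Control and Stress values overlapped, and 4.78% of gene body and 4.88% of intergenic regions were gained.

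Distance to the nearest start site differed little. The median was 54.2 kb in gained, 58.9 kb in lost and 57.1 kb in every region. Gained regions were 12.9% of those at 2 to 10 kb, 11.8% at 10 to 50 kb, 11.5% at 50 to 200 kb and 11.3% beyond 200 kb. Lost regions were 1.23%, 1.07%, 1.04% and 1.29% of the same classes. Beyond 200 kb lay 1511 gained (18.99%) and 173 lost regions (22.7%), against 19.7% of every region. Median distances per library were 57.9 and 56.1 kb in Stress and 59.7 and 57.3 kb in Control, which overlapped (exact permutation p = 0.667). At the inner limit, the class of promoters ends 2000 bp from a start site, and 6 gained and 3 lost regions overlapped a promoter peak of the other group.

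Obox6, an oocyte-specific homeobox gene, shows what that limit does. Its gained region at chr7:15837076-15838164 had folds of 18.8 and 20.5 in Stress 1 and 2, with summits at 2167 and 2147 bp from the start site. Control 1 and 2 had peaks of fold 17.4 and 16.5 there, with summits at 1984 and 1968 bp, and these were classed as promoter peaks. The region ranked first among gained regions by the rule, yet all 4 libraries had a peak.

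Chromosomes had similar shares of gained regions. These ran from 10.8% on chromosome 5 to 13.0% on chromosome 19 among autosomes, with 12.8% on X and 9.87% on Y. Lost regions were 0.709% on chromosome 18 to 1.45% on chromosome 17 among autosomes and 1.81% on X. Chromosome Y stood apart with 46 lost of 760 regions (6.05%). With equal numbers of peaks 50 of its 544 regions (9.19%) were lost and 38 (6.99%) gained, both the highest shares of any chromosome. The mouse Y chromosome is largely made of near-identical copies of a few gene families, so peaks on it cannot be assigned to 1 copy with certainty. Ssty2, a member of a multicopy family of Y-linked genes expressed in testis, had 3 lost, 1 gained and 19 regions in all.

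**Figure D4:**
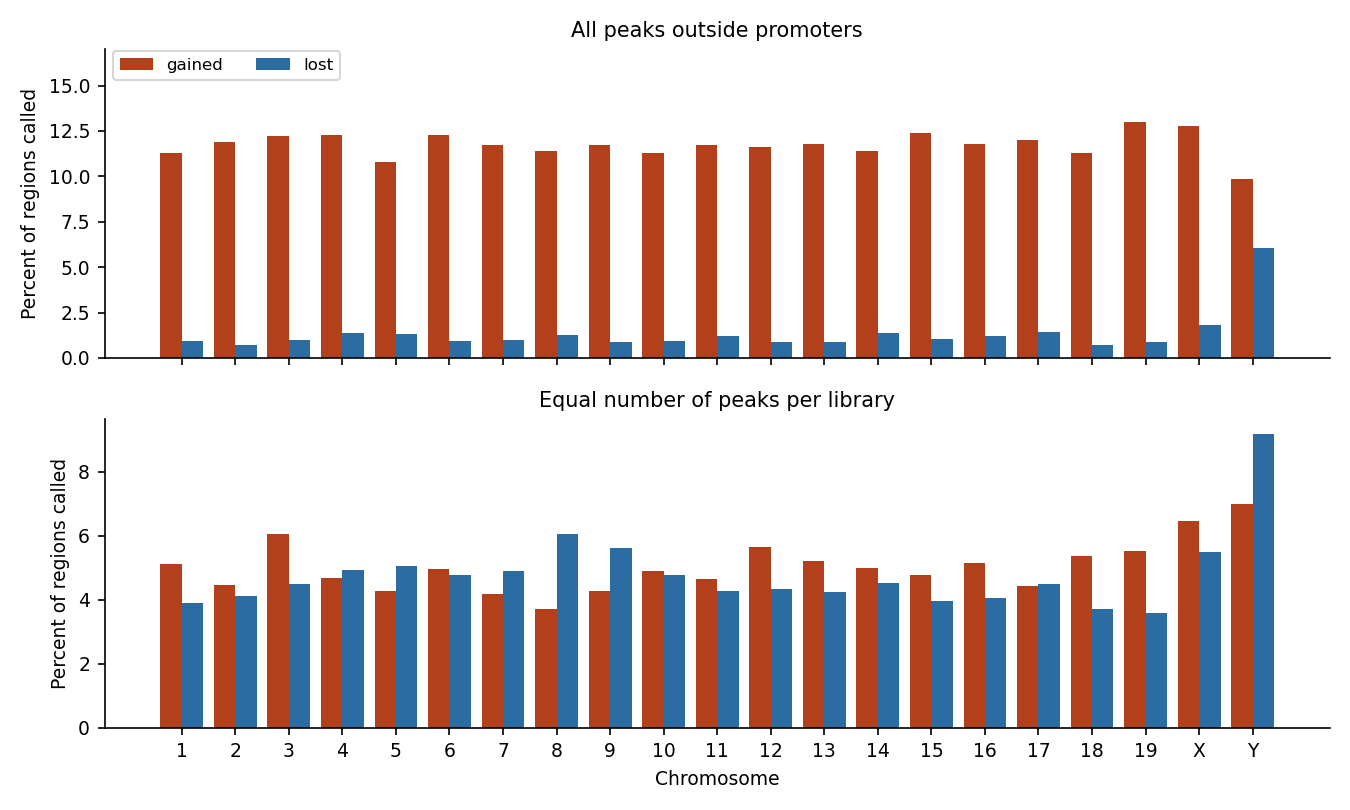
Percent of the regions of each chromosome called gained (red) and lost (blue), with all peaks above and equal numbers of peaks below. Chromosome Y has the highest share of lost regions in both panels, 6.05% above and 9.19% below.

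Among the 12 strongest gained regions, Obox6 included, folds in the Stress libraries lay between 13.8 and 23.7, and CpG density between 1.33 and 7 per 100 bp with a median of 5.67. In 9 of the 12 more than 50% of the window was repeat-masked, as in 8 of the 12 lost regions named by the same rule. Over every region this share was 49.1%, and in regions found in all 4 libraries 68.7%. Foxk1 codes for a forkhead transcription factor. Its region at chr5:141974903-141975672 had folds of 16.0 and 21.7 in Stress 1 and 2, with no peak in either Control library. It lay 426 kb upstream of the start site, within an intron of Sdk1, which codes for a synaptic cell adhesion molecule. The 4 libraries of ethanol-exposed mice all had a peak there, at folds of 7.78 to 15.1.

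The region near Duxbl1, a double homeobox gene, had folds of 14.7 and 20.04 in the Stress libraries and no peak in any of the other 6. It was the only one of these 12 with a peak in no library of ethanol-exposed mice. Duxbl1 has close copies nearby on chromosome 14, so reads may be shared between them. The region near Cetn2, the gene of the centriole protein centrin 2, lay on the X chromosome at chrX:72877434-72878268, 40.5 kb downstream of the start, with folds of 14.7 and 19.6. In the ethanol-exposed libraries the peaks there were lower, at 3.56 to 7.29.

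Some strong gained regions lay inside other genes than the one with the nearest start site. The region assigned to Nxph4, a neurexophilin that binds alpha-neurexins, lay in an intron of the lipoprotein receptor gene Lrp1 at chr10:127572727-127573752, with folds of 16.97 and 17.08. The region assigned to Tmbim6, an inhibitor of cell death in the endoplasmic reticulum, lay in a coding exon of Nckap5l at chr15:99422481-99423150, with folds of 14.2 and 20.5. It was unmasked and had 6.33 CpG per 100 bp. Pak7, a kinase expressed in brain, had its region in its own intron, 113 kb from the start, with folds of 23.7 and 16.4. Cdh11, a cadherin, was the nearest gene of a region 1424 kb away with folds of 15.6 and 16.7. The remaining members were Cox7b2, Lipm, Sema6a and Tom1l1, with folds of 13.8 to 17.1 in 3 of them and 14.2 and 18.8 at Lipm.

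The 12 lost regions named by the same rule had lower folds, 9.40 to 13.8 in the Control libraries. The 6 lost regions of left-out gene types that outranked the last of them had folds of 10.7 to 15.9, and 4 of the 6 lay on chromosome Y, among multicopy genes, with 5 CpG-poor. CpG density in the 12 named lay between 0 and 3.00 per 100 bp with a median of 0.5, and 10 of the 12 were CpG-poor, against 0 of the 12 strongest gained regions. Nfe2l3 codes for a transcription factor of the cap'n'collar family. Its region at chr6:51255084-51255757 had folds of 11.9 and 12.6 in Control 1 and 2 and no peak in Stress libraries. It lay 177 kb upstream, and 3 of the 4 ethanol-exposed libraries had a peak there at folds of 9.92 to 11.4.

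Derl1 acts in the removal of misfolded proteins from the endoplasmic reticulum, and its lost region 4.83 kb upstream of the start had folds of 11.5 and 11.1. The region 7.21 kb upstream of Pik3ip1, an inhibitor of phosphatidylinositol 3-kinase, had folds of 10.2 and 13.2. Itpr2, an inositol trisphosphate receptor that releases calcium from intracellular stores, had its region in an intron, 62.3 kb from the start, with folds of 10.2 and 12.6. Scara3, a scavenger receptor, also had an intronic region, with folds of 10.2 and 11.1. Near Defa5, folds were 9.82 and 13.8, but the alpha-defensin genes form a cluster of close copies. Scn11a, a voltage-gated sodium channel, and Ush1g, a scaffold protein of sensory hair cells, had the 2 regions with the highest density, at 3.00 and 1.67 CpG per 100 bp.

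**Figure D5:**
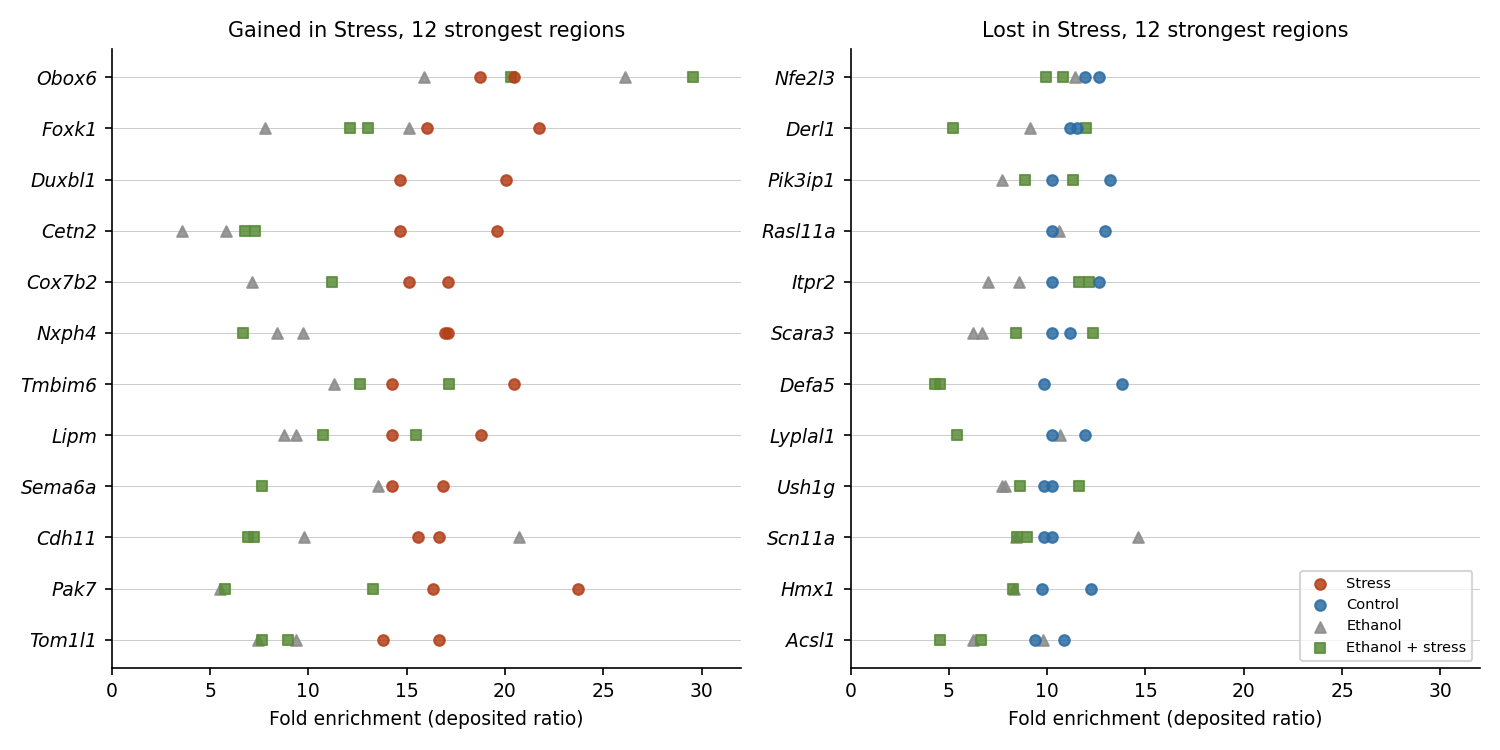
Fold enrichment (horizontal axes, deposited ratio) in each library with a peak at the 12 strongest gained regions (left) and the 12 strongest lost regions (right) among genes not left out by type, 1 row per nearest gene and 1 point per library. A missing point means that no peak was called outside promoters or, for the libraries of ethanol-exposed mice, of any class. Stress points (red) lie at 13.8 to 23.7 on the left and Control points (blue) at 9.40 to 13.8 on the right.

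Called regions were spread over many genes. Of 12498 genes that were nearest to at least 1 region, 4673 had a gained and 703 a lost region. Of the 703 genes with a lost region, 405 (57.6%) also had a gained one, beside 4673 of all 12498. A gene with more regions can more readily have both, and the number of regions per gene was not matched. There were 198 genes with at least 5 gained regions, and these were long, with a median length of 81.6 kb against 22.6 kb for all genes with a region. Wwox, a large tumour suppressor gene that spans a fragile site, had the highest number among the genes named by the rule, with 19 gained of 153 regions (12.4%), all in its gene body. Sox6, a transcription factor of the SoxD group, had 18 of 100 (18%), 15 of them in the gene body, and its relative Sox5 had 12 of 85 (14.1%).

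Chd7, a chromatin remodeller, had 11 gained of 58 regions (19%), and Tshz2, a zinc finger protein, 11 of 61 (18%). Tle3, Lphn2 and Bcl11b had 11 or 12 gained regions and shares of 9.73% to 14.3%, near the 11.7% over all regions. With equal numbers of peaks 1 to 4 of these gained regions per gene were still called. Genes were named here for the most gained or lost regions in these same data. That choice favours shares above those over all regions. Among lost regions, Atp11b, a phospholipid flippase, had 4 of 22, all 4 still lost with equal numbers. Asap2, a regulator of Arf GTPases, had 3 of 52, and Itpr2 had 2 of 31, beside 1.13% lost over all regions. Gained regions numbered 1 at Atp11b, 2 at Asap2 and 2 at Itpr2.

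The following gene lists count every region with a list member among its nearest genes, and are read against 11.7% gained and 1.13% lost over all regions. For receptors and channels the shares of gained regions were below or near that background. Glutamate receptors had 23 gained of 243 regions (9.47%) and 0 lost. Grm3, a metabotropic receptor, had a gained region 346 kb upstream with folds of 10.6 and 9.49, and Grid1, a delta receptor, an intronic one with folds of 7.44 and 12.02. GABA receptors had 6 gained of 58 (10.3%) and 1 lost. Gabrr1, a rho subunit, had a gained region in a coding exon with folds of 7.89 and 12.02, and Gabrg3 had a gained and a lost region in its body. The gained region of Gabrg3 was not called with equal numbers of peaks.

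Monoamine and acetylcholine receptors had 20 gained of 212 regions (9.43%) and 5 lost (2.36%). The gained ones included a coding exon of Chrna9, a nicotinic subunit, with folds of 8.09 and 9.91, and a region 44.3 kb from Htr5b, a serotonin receptor, with folds of 11.5 and 10.8. Of the lost ones, 4 lay near Htr2a and Htr1d, both serotonin receptors, and near Adra1b and Adra2b, both adrenergic receptors, at folds of 5.38 to 9.37. Voltage-gated calcium channels had 14 gained of 135 (10.4%) and 4 lost (2.96%). Cacna1i, a T-type channel, had a gained region in a coding exon with folds of 8.19 and 8.89 and a lost one in an intron with folds of 6.06 and 5.52. That lost region was not called with equal numbers of peaks. Voltage-gated potassium channels had 29 gained of 251 (11.6%) and 5 lost (1.99%). A gained region in the untranslated part of Kcng3, a modulatory subunit of these channels, had folds of 10.2 and 14.6.

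Synaptic adhesion molecules had 54 gained of 413 regions (13.1%) and 4 lost (0.969%). Gained regions near Slitrk3 and Slitrk5 had folds of 11.9 to 14.6 and were fully repeat-masked. The lost regions included introns of Cntnap4 and Nrxn3, with folds of 6.06 to 9.82. That in Nrxn3 was not called with equal numbers of peaks. Axon guidance genes had 81 gained of 656 (12.3%) and 6 lost (0.915%). Robo1, the receptor of Slit proteins, had a gained region in its body with folds of 11.5 and 14.98, and Slit3, a ligand of that family, a lost one 25.1 kb upstream with folds of 10.1 and 7.89.

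The list of the glucocorticoid stress axis, the hormonal system that maternal separation is known to engage, had 16 gained of 131 regions (12.2%) and 1 lost (0.763%). These shares were close to those over all regions. Sgk1, a kinase induced by glucocorticoids, had a gained region with folds of 9.22 and 7.80, and the oxytocin receptor gene Oxtr one 74.0 kb upstream with folds of 8.27 and 6.95. Neither was called with equal numbers of peaks, and 3 of the 16 were. The corticotropin receptor gene Mc2r was nearest to both a gained and a lost region.

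Neurotrophins and their receptors had 17 gained of 163 regions (10.4%) and 2 lost, of which 1 lay 31.1 kb upstream of Gdnf, a survival factor for neurons, with folds of 8.99 and 9.96. Cytokines and their receptors had 76 gained of 640 (11.9%) and 5 lost (0.781%). A gained region in an intron of Osmr, the oncostatin M receptor, had folds of 11.1 and 10.8. Csf3r, the receptor of granulocyte colony stimulating factor, was nearest to a gained region with folds of 14.2 and 15.8 and to a lost one with folds of 6.89 and 7.60.

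Histone and arginine methyltransferases had 30 gained of 265 regions (11.3%) and 0 lost. The gained region of Setd2, the methyltransferase of lysine 36 on histone H3, lay in a coding exon 15.8 kb from the start, with folds of 12.9 and 16.7. The genes that write, read or remove DNA methylation had 8 gained of 77 (10.4%) and 1 lost. Near Dnmt3l, a cofactor of de novo methylation, a gained region in a coding exon of Aire had folds of 7.89 and 10.8. Imprinted genes had 27 gained of 248 (10.9%) and 1 lost, in a coding exon of Igf2r, with folds of 6.06 and 6.71, which was not called with equal numbers.

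Marker genes of cell types were counted in the same way and say nothing of expression. Oligodendrocyte markers had the highest share of gained regions of the 18 lists, 17 of 96 (17.7%), with 2 lost. With equal numbers 3 of the 17 gained and the 2 lost regions were still called. The gained region near Pdgfra, the receptor of oligodendrocyte precursors, had folds of 12.4 and 11.6, and that in Mag, a myelin glycoprotein, 9.70 and 10.3. The lost regions lay near Olig1, with folds of 6.83 and 18.4 in Control 1 and 2, and near Opalin, with folds of 6.89 and 7.60. Microglia markers had 14 gained of 99 (14.1%) and 0 lost, astrocyte markers 12 of 121 (9.92%) and 1 lost, and vascular and choroid plexus markers 8 of 130 (6.15%) and 2 lost. Neuron markers had the lowest share, 7 of 135 (5.19%), with 1 lost. The lists hold few genes and many regions per gene, and no test was made of their differences.

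Libraries of ethanol-exposed mice took no part in the calls and so show how the regions behave where maternal separation was added to ethanol. Of the 7958 gained regions, 58.7% had a peak in Ethanol 1 and 18.2% in Ethanol 2, against 51.8% in Ethanol + stress 1 and 37.4% in Ethanol + stress 2. The groups overlapped, and the mean was 6.13 points higher in Ethanol + stress (exact permutation p = 1.00), beside 6.10 points over every region. Of the 763 lost regions, 51.5% and 25.6% had a peak in the Ethanol libraries and 58.98% and 47.4% in the Ethanol + stress libraries. That difference was 14.7 points, also toward more peaks with maternal separation (exact permutation p = 0.667), so it ran opposite to the direction of the calls. It too stands beside 6.10 points over every region, and 8.71 points in regions found in all 4 libraries of the comparison.

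With all 8 libraries reduced to 22239 peaks, 1969 regions were gained and 1874 lost. The share of these gained regions with a peak was 2.24 points higher in Ethanol + stress than in Ethanol, beside 2.75 points over every region, and the groups overlapped (exact permutation p = 1.00). For lost regions the groups did not overlap, with 39.3% and 37.3% in the Ethanol and 44.02% and 43.1% in the Ethanol + stress libraries. The difference was 5.28 points (exact permutation p = 0.33, the smallest possible), again beside 2.75 points over every region. Of the regions then found in all 4 libraries of the comparison, 79.1% to 93.1% also had a peak in each ethanol-exposed library. For gained regions the spread between libraries of a group exceeded the difference between the groups, and a gain with maternal separation was not detectable in these 4 libraries.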

How the data were processed

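MeDIP-Seq of hippocampal DNA gave 8 deposited peak lists. Per the submitters' notes, reads were aligned with HISAT2 2.1.0 to mm10. According to the study's methods, the authors used MACS to call peaks against group inputs and assigned them to RefSeq genes. The files hold columns of another MACS release than the one named there, so the release is uncertain. The deposited fold enrichment is a ratio, the deposited q-value column holds −log10 values, and the deposited tag value at the summit, a score, was not used. Depth was not given in the sources used here.

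Peaks with no promoter row (summit within 2000 bp of a start site) were merged at 1 bp. The merging was tested on simulated data and against bedtools 2.31.1. CpG density was read in 300 bp around the summit of the strongest peak. Start sites in the files lay within 500 bp of GENCODE M21 starts in 12642 of 13103 cases (96.5%), and 0 peaks passed a chromosome end. Sequences came from RefSeq. Values per library were compared by exact permutation with Benjamini-Hochberg adjustment. The named regions are, per direction, the 12 with the highest value of the lower within-library percentile of fold, 3 beyond 200 kb, the 8 genes with the most called regions, and up to 4 members of each of 18 gene lists. The first sets leave out predicted genes, genes of small RNAs, and receptors of smell and pheromones. No sequence from chromosome 18 was printed, and some named regions are not reported here. Members, lists and rules were chosen with earlier results of these data known, and the measures of CpG density, repeats and coding exons were added after the data were seen. Alternatives were equal numbers of peaks, a −log10 q-value of at least 10, an overlap of 50% of the shorter peak, autosomes, regions free of promoter peaks, and each library left out. Python 3.11.15, numpy 2.4.6, pandas 2.3.3 and matplotlib 3.10.9 were used.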

Additional observations from a re-analysis of the deposited data

Results flagged for a closer look

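The share of peaks with a run of at least 5 CA pairs was lower in both Stress libraries (29.0% and 27.1%) than in both Control libraries (33.2% and 36.5%). In ethanol-exposed mice it was slightly higher in both Ethanol + stress libraries (30.6% and 30.6%) than in both Ethanol libraries (30.1% and 30.1%). With all 8 libraries reduced to 22239 peaks, the Ethanol libraries had 33.4% and 30.1% and the Ethanol + stress libraries 33.8% and 33.4%, and these groups overlapped. The Stress mean minus the Control mean was then -6.21 points. The difference between the contrasts was -7.34 percentage points with all peaks and -8.05 points with equal numbers, and it was not tested. It was 1 of 14 measures per library looked at for libraries that move opposite ways.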

How the results depend on the processing

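Equal numbers of peaks changed the balance of calls, to 2059 gained, 1976 lost and 51.03% gained among called regions, and gave CpG-poor shares of 12.04% in gained and 60.58% in lost regions. This follows from its construction, since it removes more peaks from the Stress libraries. A stricter q-value, a stricter overlap, autosomes only, and leaving out regions at a promoter peak of the other group kept every count within 1.5 times, with 7566 to 7952 gained and 699 to 774 lost regions. Counting every peak with a gene body or intergenic row gave the same regions.

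Leaving out 1 library asks for a peak in fewer libraries. Gained regions then numbered 11111 (without Control 2) to 25336 (without Stress 1), with 16559 without Stress 2 and 11738 without Control 1. Lost regions numbered 1388 (without Stress 1) to 4788 (without Control 2), with 1998 without Stress 2 and 2846 without Control 1. Gained regions made up 69.88% to 94.81% of the called ones, and CpG-poor shares were 19.15% to 25.30% in gained and 53.70% to 64.99% in lost regions. The difference in the number of peaks was 14008 to 25185 and that in CpG-poor peaks -11.65 to -8.58 points.

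With the replicate number as a block, a region must change within both same-numbered pairs, which gives the same 7958 and 763 regions. Paired permutation gave p = 0.5 for the number of peaks (difference 19596.5) and for CpG-poor peaks (difference -10.11 points), the smallest that 2 pairs allow. The labels do not say that a number links mice. Of 130 named regions, 107 kept their call with equal numbers (61 of 80 gained and 46 of 50 lost). Named regions were ranked by fold and equal numbers keep the strongest peaks, so the naming rule favours regions that keep their call. Over all called regions, 23.9% of gained and 82.2% of lost ones kept it. With 2 libraries per group, no depth and no value below the calling limit, an absent peak may be a weak one.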
